A study of Mus musculus with 2 samples.

Results

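The genes described here encode the contractile apparatus and the calcium store of skeletal muscle, with their cardiac and developmental counterparts. They were chosen by symbol, by function: the sarcomeric actins, alpha-actinins, myosin heavy and light chains, troponins, tropomyosins and myosin-binding C proteins, titin, nebulin, desmin, muscle creatine kinase, myoglobin and 6 calcium handling genes. All 44 symbols were matched by Ensembl identifier, among 42462 genes with a symbol in the deposited tables. Total RNA over 200 bases was sequenced from the embryonic facial prominence of mouse strain B6NCrl at embryonic day 14.5. This is a whole-tissue sample with muscle among many other cells, and which muscles it held was not determined. There is 1 group of 2 biological replicates with no treatment or genetic change, so no condition was compared. The labels describe each sample as the face of 1 pup, collected on separate days, and also give its sex as pooled. Each library was made from 10.0 ng of RNA by a SMART-seq protocol with added spike-in RNAs.

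In the sarcomere, thick filaments of myosin pull on thin filaments of actin, and the troponin complex with tropomyosin lets this happen only when calcium is bound. Calcium leaves the sarcoplasmic reticulum through the ryanodine receptor when a voltage sensor in the cell membrane is triggered, and calcium pumps return it to the store, where calsequestrin holds it. Most of these proteins exist as embryonic, slow, fast and cardiac forms from separate genes, and others as splice forms of 1 gene. Developing skeletal muscle is known to make embryonic, slow and cardiac forms before the adult fast forms.

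The libraries held 30919488 and 37738872 expected counts, the estimated reads per gene. Spike-in and control sequences took 3.22% of counts in replicate 1 and 5.43% in replicate 2. Levels are given as TPM, which is scaled by transcript length and depth. For a message of 2000 effective bases, the limit that 0 counts allow was 0.0761 TPM in one library and 0.0589 TPM in the other. Floors and intervals cover counting error only, and with 2 samples the smallest two-sided sign permutation p is 0.5, so no test across embryos was made. All 10 skeletal muscle markers were at 1 TPM or more in both libraries, beside 63.9% of protein-coding genes. Of these, Ckm, Acta1, Mylpf, Tnnt3, Ryr1 and Cacna1s are themselves among the 44 genes. The others were the myogenic regulators, with Myog at 177 and 170 TPM and Myod1 at 41 and 35.4 TPM. Myf5 was at 18.2 and 16.8 TPM and Myf6 at 16.5 and 22.0 TPM.

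Of the 44 genes, 38 (beside 63.9% of 21474 protein-coding genes) reached 1 TPM in both libraries. The 5 genes under 1 TPM in both were Myh4, Myh13, Myh15, Mybpc2 and Mybpc3, and Myh2 passed in replicate 2 alone. A mean of 100 TPM or more was found for 26 genes, of 500 or more for 8 and of 1000 or more for 3. Their median level was 159.9 TPM, where that of the protein-coding genes at 1 TPM in both libraries was 17.3 TPM. Together they took 1.28% of all counts in replicate 1 and 1.68% in replicate 2. In whole tissue, more muscle cells and more RNA per muscle cell cannot be told apart.

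**Figure D1:**
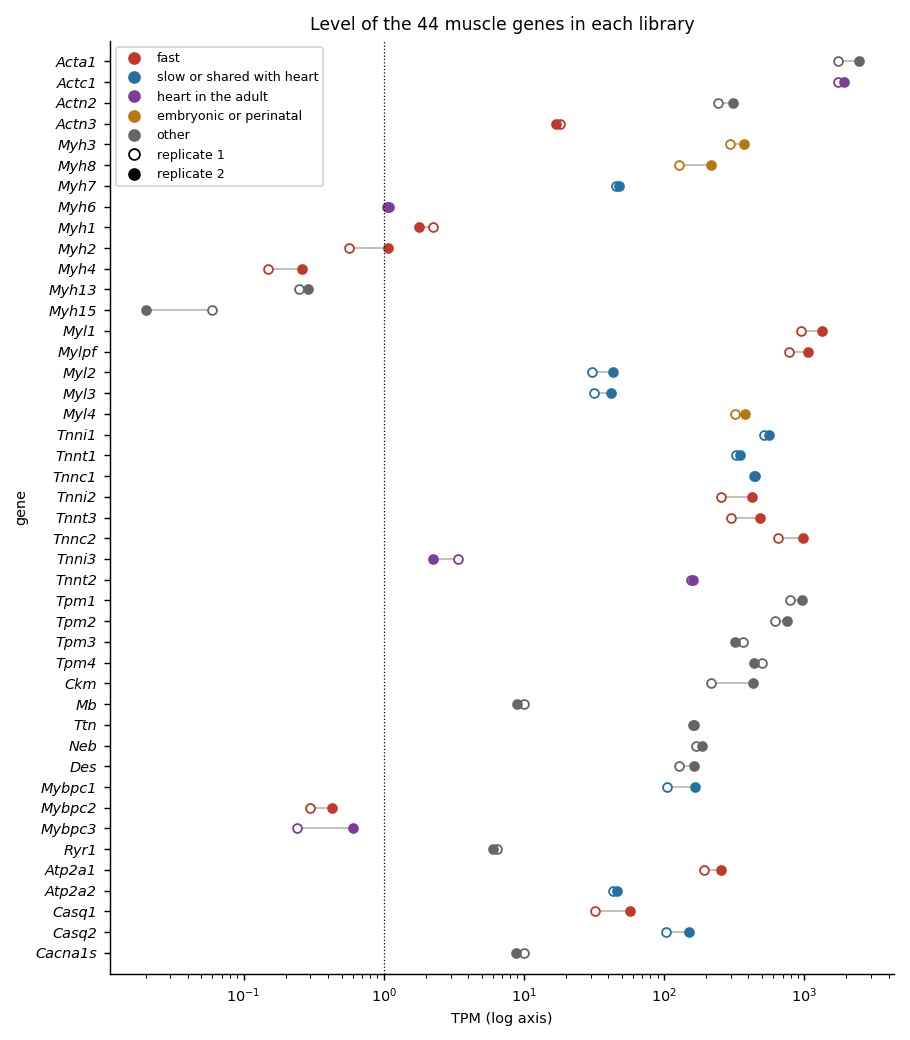
Level of each of the 44 genes in TPM on a log axis, with replicate 1 as an open and replicate 2 as a filled circle, coloured by isoform class; the dotted line marks 1 TPM. Both actins lie at 1732 TPM or more in each library, while 6 genes have at least 1 library under 1 TPM, among them Myh4 and Mybpc2.

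The thin filament is built from actin, and the sarcomeric actin genes ranked 23 (Acta1) and 29 (Actc1) by mean TPM among protein-coding genes. Acta1, skeletal alpha-actin, stood at 1743 TPM (45855 counts) in replicate 1 and 2448 TPM (83214 counts) in replicate 2. Actc1, cardiac alpha-actin, stood at 1732 TPM (46934 counts) and 1930 TPM (67528 counts). Thus the pair was nearly level in replicate 1 and led by the skeletal form in replicate 2. The cardiac gene made 47.0% ± 4.07 (SD, n = 2) of sarcomeric actin TPM, 49.8% and 44.1% in the libraries. The CPM of Acta1, its counts scaled to library size, was 1.49 times higher in replicate 2, with an exact 95% counting interval of 1.470 to 1.504, and that of Actc1 was 1.18 times higher (1.16 to 1.19). The coding sequences of the genes are 86.3% identical. The expected counts of Actc1 were whole numbers in both libraries, so no sharing of its reads with Acta1 was seen. Acta1 lies on chr8:123891769-123894751 of build mm10 and Actc1 on chr2:114047282-114053548, both on the minus strand.

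The alpha-actinins tie actin filaments to the Z disc. Actn2, the form of all sarcomeres, was at 243 and 309 TPM. Actn3, restricted to fast fibres in the adult, was at 17.97 and 16.98 TPM. Actn3 thus made 6.89% and 5.21% of the pair, and its level was not higher in replicate 2, unlike that of the other abundant fast genes. Part of its TPM, 37.5% and 29.4%, was assigned to a short transcript with a retained intron.

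Myosin heavy chains are the motors of the thick filament, and the developmental genes dominated. Myh3, embryonic myosin, stood at 298 TPM (34760 counts) and 371 TPM (56033 counts). Myh8, perinatal myosin, stood at 128 TPM (15141 counts) and 215 TPM (32840 counts). Together they made 90.6% ± 1.65 (SD, n = 2) of myosin heavy chain TPM, 89.5% in replicate 1 and 91.8% in replicate 2. Within that share Myh8 was 0.43 of Myh3 in replicate 1 and 0.58 in replicate 2, a change of 1.35 times by counts (1.31 to 1.38).

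Myh7, the slow and cardiac beta form, was at 45.8 TPM (5388 counts) and 47.8 TPM (7354 counts). It made 8.56% ± 1.51 (SD, n = 2) of the family, and it was the only other heavy chain above 5 TPM in either library. Myh6, cardiac alpha myosin, was at 1.06 and 1.09 TPM on 85.1 and 144 counts, so Myh7 exceeded it 43.2 and 43.8 times. The coding sequences of Myh6 and Myh7 are 91.7% identical, and how many of the Myh6 counts may belong to Myh7 was not measured.

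The adult fast genes were low beside Myh3 and Myh8 in both libraries. Myh1, the gene of fast type IIx fibres, was at 2.23 TPM (224 counts) and 1.78 TPM (254 counts). Myh2, of type IIa fibres, was at 0.57 TPM (61.6 counts) and 1.08 TPM (159 counts). Myh4, of type IIb fibres, was at 0.15 TPM (17.6 counts) and 0.26 TPM (39.5 counts). Together these adult fast genes made 0.620% and 0.489% of heavy chain TPM. In coding sequence Myh1 is 91.0% identical to Myh2 and 89.1% identical to the more abundant Myh8. A part of the low counts may thus belong to a more abundant relative, and the size of that part was not measured. Counts of all adult fast genes and of Myh3, Myh8, Myh6 and Myh7 were fractional, which shows that reads were shared out among genes.

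Myh13, a form of eye and laryngeal muscle, was at 0.25 TPM (8.76 counts) and 0.29 TPM (16.1 counts). For Myh15, an ancient heavy chain, the levels were 0.06 TPM (7 counts) and 0.02 TPM (3 counts). Both lie near the floor.

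Genes of unlike level are neighbours in this family. On the plus strand of chromosome 11 the genes follow each other in the order Myh3, Myh2, Myh1, Myh4, Myh8 and Myh13 from chr11:67078300-67102291 (Myh3) to chr11:67321658-67371586 (Myh13). Myh2, Myh1 and Myh4, each at 2.23 TPM or less, lie between the abundant Myh3 and Myh8. Myhas, an antisense RNA that overlaps Myh1, was at 0.11 and 0.39 TPM on 1.71 and 6.9 counts. The 250 bases before the RefSeq start (GRCm38.p6) of Myh3, of Myh4, at 0.15 and 0.26 TPM, and of its abundant neighbour Myh8 are shown to compare genes of 1 cluster with unlike levels. Capitals mark exact matches to TATAAA, to CAGCTG and to the CArG box and MEF2 site, searched on both strands.
Myh3 promoter: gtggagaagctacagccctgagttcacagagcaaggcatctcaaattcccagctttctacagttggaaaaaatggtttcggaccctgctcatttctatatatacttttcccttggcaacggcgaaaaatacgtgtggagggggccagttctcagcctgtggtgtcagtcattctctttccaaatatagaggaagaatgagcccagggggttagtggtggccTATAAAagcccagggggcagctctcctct
Myh4 promoter: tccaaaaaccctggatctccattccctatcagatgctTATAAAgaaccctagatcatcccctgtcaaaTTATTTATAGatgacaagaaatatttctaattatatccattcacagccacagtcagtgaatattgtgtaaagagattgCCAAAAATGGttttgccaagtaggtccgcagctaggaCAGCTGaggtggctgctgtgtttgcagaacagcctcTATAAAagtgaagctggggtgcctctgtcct
Myh8 promoter: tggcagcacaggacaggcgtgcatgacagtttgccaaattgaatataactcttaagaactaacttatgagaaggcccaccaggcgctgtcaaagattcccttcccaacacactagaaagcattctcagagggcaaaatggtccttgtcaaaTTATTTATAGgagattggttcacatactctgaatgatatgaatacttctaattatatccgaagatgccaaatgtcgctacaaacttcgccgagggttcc
These windows are chr11:67078050-67078299, chr11:67237562-67237811 and chr11:67276874-67277123, all on the plus strand. The Myh4 window held 6 matches, that of Myh8 held 2 and that of Myh3 held 1, where a MEF2 site in Myh4 and the one in Myh8 also contain TATAAA on the other strand. In the genes shown, which are only a part of the cluster, the number of matches thus ran opposite to the level. Of their neighbours, Myh1 held 3 matches at 2.23 and 1.78 TPM, and Myh2 held 0 at 0.57 and 1.08 TPM. The letters TATAAA lay 29 to 24 bases before the start in Myh3 and 31 to 26 bases before it in Myh4, where a TATA box usually stands.

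The light chains stabilise the myosin lever and come in essential and regulatory kinds. Myl1, the fast essential light chain, stood at 952 TPM and 1328 TPM. Mylpf, the fast regulatory light chain, stood at 780 and 1068 TPM. Myl2, the slow and ventricular regulatory chain, was at 30.5 and 42.9 TPM, so the fast Mylpf exceeded it 25.6 and 24.9 times. Myl3, the slow and ventricular essential chain, was at 31.5 and 41.7 TPM. Myl4, the embryonic and atrial essential chain, was at 321 and 380 TPM. The fast genes made 82.8% ± 1.31 (SD, n = 2) of light chain TPM and Myl4 made 15.2% and 13.3%. So heavy chains were of embryonic type while light chains were mainly of the fast type that the adult keeps.

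Myl1 is known to encode a longer and a shorter essential chain from separate start sites. The shorter, of 150 codons, took 60.7% and 61.8% of Myl1 TPM, and the longer, of 188 codons, took 37.4% and 36.5%. Myl4 also held a transcript with a retained intron at 24.9% and 23.6% of its TPM. On the opposite strand Myl3 overlaps Pth1r, a receptor gene at 77.3 and 73.2 TPM.

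Troponin I blocks the myosin site in the absence of calcium. Tnni1, the slow form, was at 515 TPM (10100 counts) and 558 TPM (14144 counts). Tnni2, the fast form, was at 255 TPM (3206 counts) and 425 TPM (6895 counts). The slow form led in both libraries, and the fast to slow ratio went from 0.49 in replicate 1 to 0.76 in replicate 2, a change of 1.54 times by counts (1.46 to 1.61). Tnni3, the cardiac form, was at 3.41 TPM on 22 counts and 2.26 TPM on 29 counts, and 73.3% of this TPM in replicate 1 came from short transcripts. The fast share of troponin I was 38.0% ± 7.20 (SD, n = 2).

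Troponin C is the calcium sensor. Tnnc1, shared by slow and cardiac muscle, stood at 442 TPM (5401 counts) and 441 TPM (6950 counts). Tnnc2, the fast form, stood at 647 TPM (7663 counts) and 973 TPM (14896 counts). Here the fast form led in both libraries, with 59.4% and 68.8% of the pair. Tnnc1 overlaps Nisch on the opposite strand, at 275.5 and 224 TPM, and Tnnc2 overlaps Ube2c, a gene of dividing cells, at 224 and 174 TPM. How the counting treated strand is not given in the sources used here, so reads of such partners cannot be told apart by strand.

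Troponin T holds the complex on tropomyosin. Tnnt1, the slow form, was at 326 TPM (5535 counts) and 348 TPM (7664 counts). Tnnt3, the fast form, was at 302 TPM (5437 counts) and 482 TPM (11076 counts). The order of the pair thus changed between libraries, with a fast to slow ratio of 0.92 in replicate 1 and 1.39 in replicate 2. Tnnt2, the cardiac form, was at 156 TPM (3148 counts) and 161 TPM (4239 counts), or 18.1% ± 2.52 (SD, n = 2) of troponin T. Its ratio to Tnnt1 was 0.48 and 0.46, a change of 0.97 times by counts (0.92 to 1.03), so cardiac and slow troponin T kept nearly the same proportion.

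Among the cardiac genes, then, Actc1 and Tnnt2 were high while Tnni3, Myh6 and Mybpc3 were low. Of 12 heart muscle markers 4 reached 1 TPM in both libraries, beside 63.9% of protein-coding genes. They were Sln at 407 and 639 TPM, Nkx2-5 at 6.40 and 5.64 TPM, Tnni3 and Myh6. The markers Tnni3, Myh6 and Mybpc3 are themselves among the genes described here. Sln encodes sarcolipin, which developing skeletal muscle also makes. All 12 markers summed to 420.5 and 650.3 TPM, most of it from Sln, and without Sln the other 11 summed to 13.35 and 10.9 TPM. The atrial peptide gene Nppa was at 0.11 TPM in replicate 1 and listed at 0 in replicate 2, Gata4 was listed at 0 in replicate 1 and at 0.17 TPM in replicate 2, and Nppb was at 0.22 and 0.12 TPM. The heart list thus ran from genes listed at 0 in 1 library to Sln, with Nkx2-5, a regulator of heart formation, on 180 and 205 counts. The part of heart cells in the level of Actc1 and Tnnt2 was not tested.

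All troponin T genes are spliced into many forms, and 13 transcripts of Tnnt1, 15 of Tnnt2 and 26 of Tnnt3 were in the tables. The leading transcript took 34.9% and 36.3% of TPM in Tnnt1, 61.6% and 58.0% in Tnnt2 and 33.6% and 35.1% in Tnnt3. Exon use was computed by summing the TPM of transcripts that hold an exon, over those that span its place. The 3 cassettes below, coding exons that can be skipped, lie in the part of the message for the acidic start of the protein and are shown because their use differs between genes and stages. Capitals mark the cassette and the lower case 12 bases on each side are its neighbour exons in the named transcript.
Tnnt1 cassette: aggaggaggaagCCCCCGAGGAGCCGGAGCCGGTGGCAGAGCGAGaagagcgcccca
Tnnt2 cassette: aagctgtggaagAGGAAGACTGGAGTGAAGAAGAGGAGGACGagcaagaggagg
Tnnt3 cassette: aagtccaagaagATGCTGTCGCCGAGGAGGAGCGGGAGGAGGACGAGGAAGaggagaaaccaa
The cassette of Tnnt1 has 33 bases at chr7:4513581-4513613 on the minus strand. It was present in 65.7% and 68.8% of Tnnt1 TPM. That of Tnnt2 has 30 bases at chr1:135843785-135843814 on the plus strand and is known as the exon of the embryonic heart form, which the adult heart skips. It was present in 85.6% and 81.7% of Tnnt2 TPM. The Tnnt3 cassette has 39 bases at chr7:142507750-142507788 on the plus strand, with 90.7% and 87.4%. All 3 cassettes were thus included in most transcripts of both libraries.

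Near its other end Tnnt3 has a pair of exons of 41 bases of which a transcript uses 1. Capitals mark the bases that differ between the aligned exons, 23 of 41.
Tnnt3 first exon: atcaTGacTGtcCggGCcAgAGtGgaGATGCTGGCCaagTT
Tnnt3 second exon: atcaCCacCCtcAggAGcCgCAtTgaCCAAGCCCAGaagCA
The first, at chr7:142513665-142513705, was present in 20.0% and 20.5% of TPM, and the second, at chr7:142514326-142514366, in 80.0% and 79.5%. The libraries differed by less than 1 percentage point here although the gene itself was 1.67 times higher by CPM in replicate 2 (1.62 to 1.72).

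Tropomyosin lies along actin and moves when calcium binds troponin. Tpm1 stood at 798 TPM (21763 counts) and 962 TPM (32388 counts). Tpm2 stood at 618 TPM (16697 counts) and 758 TPM (26314 counts). Both serve striated muscle, smooth muscle and other cells through splice forms. Tpm3, at 364 TPM (14382 counts) and 321 TPM (16245 counts), encodes slow muscle and general forms. Tpm4, a gene of non-muscle cells, was at 496 TPM (19831 counts) and 435 TPM (22496 counts). The CPM of Tpm3 and Tpm4 was lower in replicate 2 beyond counting error, at 0.93 times in each (0.90 to 0.95 and 0.91 to 0.95). The median gene was lower there too, at a log2 ratio of -0.15 for TPM + 1. Tpm3 and Tpm4 lay near that gene, at -0.03 and -0.04 after centring on it.

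Tpm1, Tpm2 and Tpm3 share a gene plan in which a transcript takes 1 of 2 neighbouring exons of 76 bases, and in Tpm1 and Tpm2 the forms of striated muscle are known to carry the second. The pairs are printed for that reason, in the order of transcription, with capitals at the bases that differ within a pair.
Tpm1 first exon: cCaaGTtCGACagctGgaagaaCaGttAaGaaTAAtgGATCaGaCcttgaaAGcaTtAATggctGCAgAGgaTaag
Tpm1 second exon: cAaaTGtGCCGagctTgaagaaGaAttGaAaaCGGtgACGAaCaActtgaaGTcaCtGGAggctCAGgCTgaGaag
Tpm2 first exon: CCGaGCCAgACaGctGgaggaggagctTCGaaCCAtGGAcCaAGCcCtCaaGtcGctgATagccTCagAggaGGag
Tpm2 second exon: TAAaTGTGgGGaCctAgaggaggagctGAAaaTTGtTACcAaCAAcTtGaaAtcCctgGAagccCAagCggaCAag
Tpm3 first exon: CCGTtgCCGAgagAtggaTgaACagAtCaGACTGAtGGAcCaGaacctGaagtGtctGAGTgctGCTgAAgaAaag
Tpm3 second exon: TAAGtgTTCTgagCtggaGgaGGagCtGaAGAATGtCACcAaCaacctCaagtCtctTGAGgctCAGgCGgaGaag
The exons of a pair differ at 33 of 76 bases in Tpm1, at 35 in Tpm2 and at 37 in Tpm3. On mm10 the Tpm1 pair is at chr9:67032466-67032541 and chr9:67031951-67032026 and the Tpm2 pair at chr4:43519003-43519078 and chr4:43518644-43518719, both on the minus strand. The Tpm3 pair is at chr3:90088401-90088476 and chr3:90089048-90089123 on the plus strand.

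In Tpm1 the second exon was present in 75.8% of TPM in replicate 1 and 83.0% in replicate 2. In Tpm2 it was present in 55.3% and 58.9%. In Tpm3 it was present in 9.59% and 13.3%, so the first exon dominated there. The order Tpm1, Tpm2, Tpm3 was the same in both libraries, and the second exon had the larger share in replicate 2 in all 3 genes. By expected counts its share was 71.3% and 78.9% in Tpm1, 69.9% and 72.9% in Tpm2 and 8.47% and 11.6% in Tpm3. The gap between Tpm1 and Tpm2 was thus smaller by counts. The TPM shares of Tpm2 cover 515 and 611 of its 618 and 758 TPM.

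Whole transcripts were compared next. Tpm1-205, which has the second exon and 284 codons, took 48.1% and 60.2% of Tpm1 TPM, or 383 and 579 TPM. Tpm1-213, with the first exon and 284 codons, took 23.8% and 16.8%, or 190 and 162 TPM. The form with the second exon was thus higher in replicate 2 by level as well as by share, and Tpm1-213 was lower by both. Short Tpm1 forms that begin at an internal start, of 245 to 251 codons, made 16.9% and 13.3%.

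Tpm2-202, with the second exon, took 46.1% and 47.5% of Tpm2 TPM, and Tpm2-203, with the first exon, took 37.2% and 33.2%. A further 15.57% and 18.02% went to a partial transcript of 401 bases that took only 3.43% and 3.99% of the counts. In Tpm3 the leading form was Tpm3-201, of 248 codons, with 75.04% and 66.67%, or 273 and 214 TPM. Of the TPM of complete Tpm3 coding forms, a form of 285 codons from an upstream start made 6.56% and 10.8%, and a form of 284 codons made 2.00% and 3.31%. The authors' deposited bounds for the form of 285 codons run from 7.55 to 26.6 TPM in replicate 1 and from 0.048 to 41.9 TPM in replicate 2, so its share was not resolved in replicate 2. Tpm4 had 1 leading form, Tpm4-201 of 248 codons, with 99.8% and 99.9%.

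**Figure D2:**
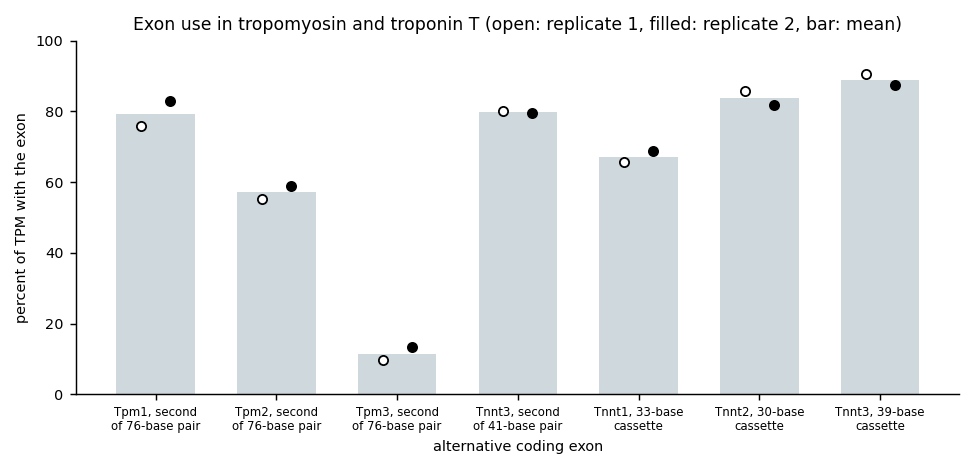
Percent of TPM that holds each alternative coding exon, for the second exon of 4 exon pairs and for 3 troponin T cassettes; the open circle is replicate 1, the filled circle replicate 2 and the bar their mean. The second exon of the 76-base pair goes from 79.4% in Tpm1 to 11.4% in Tpm3, and the 2 circles of each exon lie close together.

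Other sarcomere genes give the filaments their length and place. Ttn, titin, the molecular spring, was at 163 TPM (39702 counts) and 160 TPM (57501 counts). Neb, nebulin, the thin filament ruler, was at 168 TPM (10932 counts) and 185 TPM (16261 counts). These 2 levels rest on short annotated transcripts. In Ttn 88.7% of the TPM but 16.7% of the counts of replicate 1 came from transcripts under 0.5 of the longest length. Set over its longest transcript of 106824 bases, the counts of Ttn gave 18.9 and 21.1 TPM. Neb gave 24.8 and 28.5 TPM in the same way, over 22489 bases. Per full-length message, a calculation chosen after the values were seen, titin and nebulin thus stood nearer to Actn3, at 13.37 and 13.57 TPM on that scale, than to Actn2, at 241 and 307 TPM.

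Des, desmin, the intermediate filament of muscle, was at 128 TPM (7298 counts) and 164 TPM (12048 counts). Mybpc1, the slow myosin-binding protein C, was at 104 TPM (6103 counts) and 167 TPM (12738 counts). Mybpc2, the fast form, was at 0.30 TPM (21 counts) and 0.43 TPM (39 counts), and Mybpc3, the cardiac form, at 0.24 TPM (19 counts) and 0.60 TPM (62 counts). Mybpc1 thus made 99.4% ± 0.0684 (SD, n = 2) of this family, in which neither the fast nor the cardiac gene reached 1 TPM.

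Ckm, muscle creatine kinase, which rebuilds ATP beside the filaments, was at 218 TPM (5648 counts) and 430 TPM (14414 counts). Its CPM was 2.09 times higher in replicate 2 (2.03 to 2.16), the widest gap among the genes above 5 TPM. Mb, myoglobin, which stores oxygen, was at 9.96 TPM (174 counts) and 8.92 TPM (200 counts), with a CPM ratio of 0.94 (0.76 to 1.16).

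Calcium handling began with low levels of the release machinery. Ryr1, the skeletal ryanodine receptor, was at 6.44 TPM (1938 counts) and 5.99 TPM (2331 counts), and its CPM ratio of 0.99 (0.93 to 1.05) spanned 1. Cacna1s, the voltage sensor, was at 10.0 TPM (462 counts) and 8.83 TPM (625 counts). Over its longest transcript Cacna1s came to 3.81 and 3.99 TPM, since short forms took 68.1% of its TPM in replicate 1. The Ryr1 transcripts of 5033 and 5035 codons shared its TPM as 50.6% and 49.4% in replicate 1 and as 24.9% and 75.1% in replicate 2. The authors' deposited bounds for the form of 5035 codons in replicate 1 run from 0.044 to 5.86 TPM, so this split was not resolved.

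The pumps and the store were higher. Atp2a1, the fast calcium pump, stood at 192 TPM (7242 counts) and 257 TPM (12992 counts). Atp2a2, the slow, cardiac and general pump, stood at 43.5 TPM (3707 counts) and 46.2 TPM (5079 counts). The fast pump made 81.5% and 84.7% of the pair by TPM and 66.1% and 71.9% by counts. A partial transcript of 681 bases took 52.5% and 49.7% of Atp2a1 TPM, and over the longest transcript the gene came to 109 and 151 TPM. Atp2a1 overlaps Rabep2 on the opposite strand, at 23.4 and 20.0 TPM.

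Casq1, the fast calsequestrin, was at 32.3 TPM (1071 counts) and 57.6 TPM (2478 counts). Casq2, the slow and cardiac form, was at 103 TPM (4999 counts) and 152 TPM (9449 counts). Casq2 thus led with 76.2% and 72.5% of the pair, the reverse of the pump family, where the fast form led. The longer Atp2a2 form, of 1044 codons, took 57.8% and 56.0% of that gene, and the form of 998 codons took 42.21% and 44.04%.

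**Figure D3:**
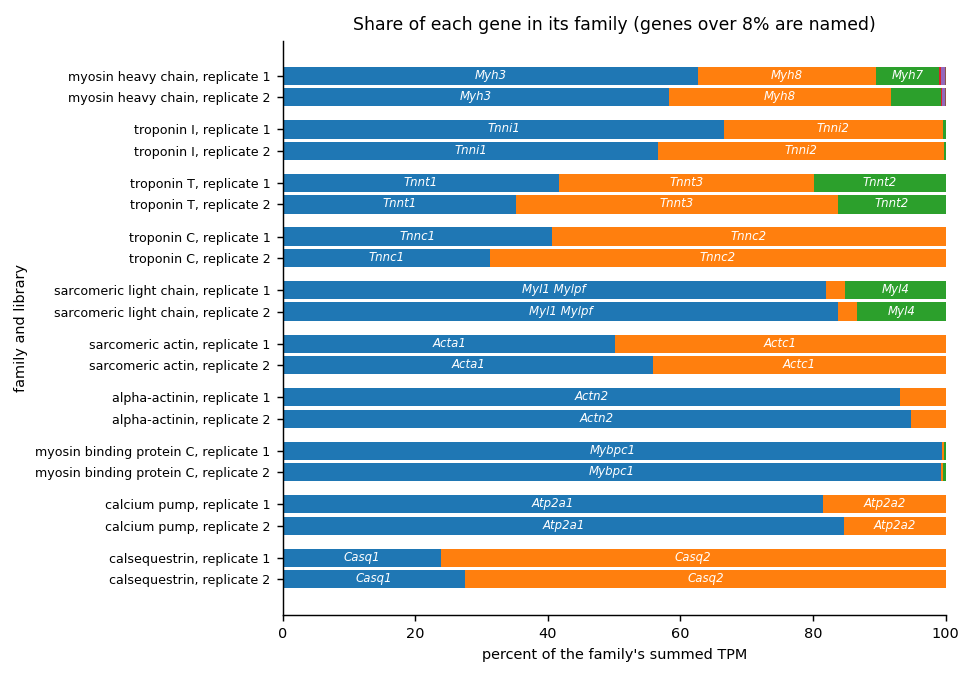
Percent of each family's summed TPM by gene or pair of genes, with replicate 1 above replicate 2 in each family. Myh3 and Myh8 fill about 90.6% of the heavy chain bars and Mybpc1 99.4% of its own, while the fast forms Tnni2, Tnnt3 and Tnnc2 take a larger share in replicate 2 in each troponin family.

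Across families there was thus no single stage or fibre type. Heavy chains were embryonic and perinatal, the myosin-binding protein C and the calsequestrin with the most TPM were slow forms, and light chains and the calcium pump were mainly fast. In the troponins the slow gene led for subunit I and the fast gene for subunit C. The 3 fast troponin genes differed between libraries in the same direction, by 1.54 times against the slow gene for I, 1.47 (1.40 to 1.54) for T and 1.51 (1.44 to 1.58) for C. The slow troponin genes themselves were close, with CPM ratios of 1.15 for Tnni1, 1.13 for Tnnt1 and 1.05 for Tnnc1. By counts, Casq1 was 1.22 times higher against Casq2 in replicate 2 (1.13 to 1.33). Atp2a1 was 1.31 times higher there against Atp2a2 (1.24 to 1.38). Mylpf was not higher against Myl2, at 0.93 times (0.81 to 1.07), and Actn3 was lower against Actn2, at 0.80 times (0.72 to 0.88).

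The difference between libraries was set against that of all genes. It was log2 of (TPM + 1) in replicate 2 over replicate 1, for 11438 genes with a mean of 5 TPM or more. Embryo, day of collection and library preparation cannot be told apart in it. The median of all genes was -0.15, and values were centred on it. Of the 44 genes 35 entered. The 9 that did not, with a mean under 5 TPM, were Myh6, Myh1, Myh2, Myh4, Myh13, Myh15, Tnni3, Mybpc2 and Mybpc3. Above the median ratio were 32 of 35 genes, where the median splits all genes at 50%, and 20 lay above the 95th percentile of all genes, 0.35. Their median was 0.44, or 0.29 before centring. None of the 35 was 2-fold or more apart before centring, beside 0.708% of all genes (0.472% higher in replicate 2 and 0.236% lower). Ckm, at 0.98 before and 1.13 after centring, lay closest to that line.

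By class, 8 fast genes had a median centred value of 0.68 and a range of 0.07 to 0.96, from Actn3 to Casq1. The 9 slow genes or genes shared with heart had a median of 0.26 and a range of 0.14 to 0.82, from Tnnc1 to Mybpc1. Myh3, Myh8 and Myl4 had a median of 0.47, and Actc1 and Tnnt2 lay at 0.30 and 0.20. The classes overlapped. The slow genes Mybpc1, Casq2, Myl2 and Myl3 lay above the 95th percentile of all genes, at 0.82, 0.70, 0.63 and 0.54. Actn3 was among the fast genes with a low value. Cacna1s, Tpm3 and Tpm4 lay at or just under the median gene, at -0.02, -0.03 and -0.04. The myogenic regulators lay near it too, with Myog at 0.09, Myod1 at -0.06 and Myf5 at 0.04, while Myf6 lay at 0.55. Of the 4 regulators, 3 thus lay within 0.1 of the median gene. Spike-in share moved with the same contrast, at 3.22% and 5.43% of counts, and its part in the differences was not tested.

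**Figure D4:**
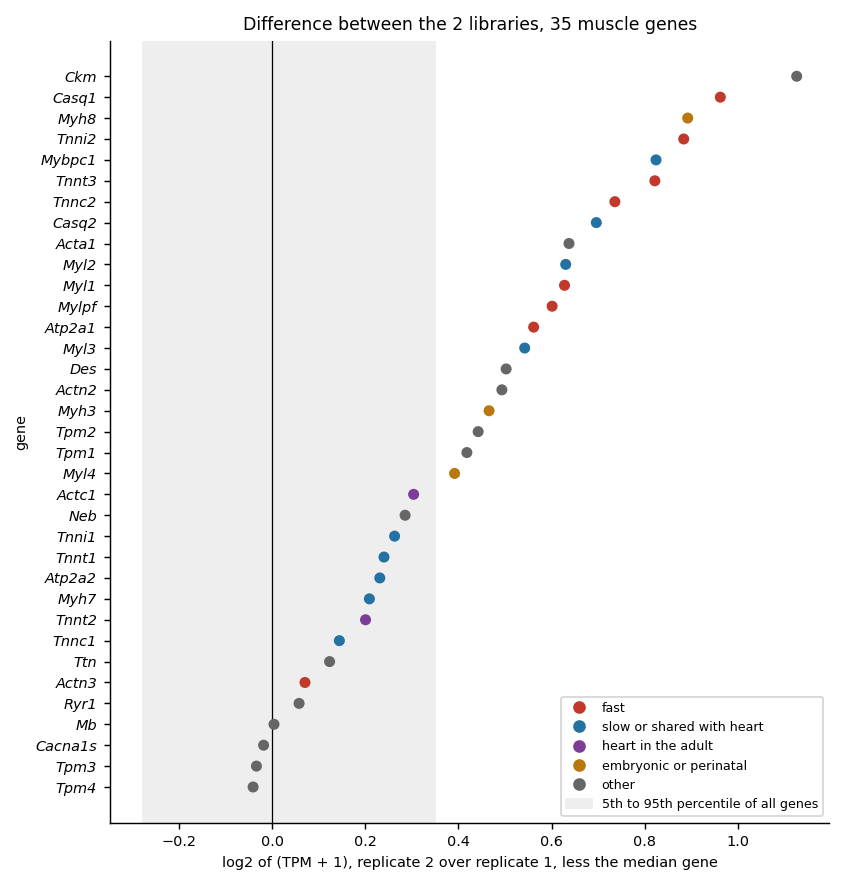
Centred log2 ratio of (TPM + 1), replicate 2 over replicate 1, for the 35 genes with a mean of 5 TPM or more, coloured by isoform class; the grey band holds the 5th to 95th percentile of 11438 genes. Ckm, Casq1, Myh8 and Tnni2 lie farthest to the right and Tpm4 farthest to the left, and 20 genes lie to the right of the band.

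Other genes of the same machinery were taken from a wider list. Of 52 further sarcomere and calcium genes, 49 (beside 63.9% of protein-coding genes) were at 1 TPM or more in both libraries. The median of the 52 was 22.6 TPM. Among the highest by mean were Sln, given above, Fkbp1a, which binds the ryanodine receptor, at 495 and 477 TPM, Csrp3, a Z-disc protein, at 134 and 212 TPM, and Pdlim7 at 156 and 155 TPM. Fkbp1a serves many cell types. The 3 lowest were Myoz3 at 0.07 and 0.31 TPM, Xirp2 at 0.27 and 0.65 TPM and Mylk2, the skeletal light chain kinase, at 0.41 and 0.99 TPM. In the comparison of libraries 42 of 43 lay above the median ratio, with a median of 0.38. Myoz1, a Z-disc gene of fast fibres, named after its values were seen, was the 1 gene 2-fold apart, at 17.6 and 39.5 TPM.

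Smooth muscle shares desmin and tropomyosins with skeletal muscle. Of 10 smooth muscle markers 9 (beside 63.9% of protein-coding genes) were at 1 TPM or more in both libraries. The lowest was Lmod1 at 0.83 and 1.07 TPM and the highest Acta2, smooth muscle actin, at 348 and 340 TPM. They summed to 488 and 496 TPM. Smtn was at 81.88 and 88.95 TPM and Tagln at 33.63 and 36.34 TPM, and the other 6 lay between 1.19 and 10.12 TPM. The part of smooth muscle and other cells in the tropomyosin forms was not tested.

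Promoters of the list were searched in RefSeq, build GRCm38.p6, in the 250 bases before the start. Of the 44 genes 39 had 1 or more entries, 46 promoters in all, and Actn3, Atp2a2, Neb, Tnni2 and Tnnt3 had none. The letters CAGCTG, the core of many E-boxes that myogenic regulators bind, were in 41.3% of the 46 and in 12.3% of 20150 protein-coding promoters. Every CAGCTG is also a match to CANNTG, the general E-box, which was in 87.0% and 62.5%. TATAAA was in 19.6% and 11.2%. A CArG box, the site of serum response factor, was in 8.70% and 1.37%, and a MEF2 site in 13.0% and 2.56%. Some entries of a gene overlap, so that in Mb and in Tnni1 the same CAGCTG was counted more than once. By gene, CAGCTG was in 17 of the 39. The CArG genes were Acta1, Actc1, Myh4 and Myl3, and the MEF2 genes were Casq2, Mybpc3, Myh1, Myh4, Myh8 and Ttn. Both sets held genes above 100 TPM and Myh4, at 0.15 and 0.26 TPM.

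The promoter of Acta1, the most abundant of the 44 genes, is shown with its matches in capitals, at chr8:123894776-123895025 on the minus strand.
Acta1 promoter: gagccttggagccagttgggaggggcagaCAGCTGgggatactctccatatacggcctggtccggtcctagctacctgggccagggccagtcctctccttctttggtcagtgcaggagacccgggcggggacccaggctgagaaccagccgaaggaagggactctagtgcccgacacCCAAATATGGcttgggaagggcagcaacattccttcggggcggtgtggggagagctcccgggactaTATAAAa
CAGCTG lay 221 to 216 bases, the CArG box 73 to 64 bases and TATAAA 7 to 2 bases before the RefSeq start. The GENCODE start of Acta1, at chr8:123894751, lies further downstream, so these distances depend on the annotation. A match describes these letters alone and does not show that a factor was bound.

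**Figure D5:**
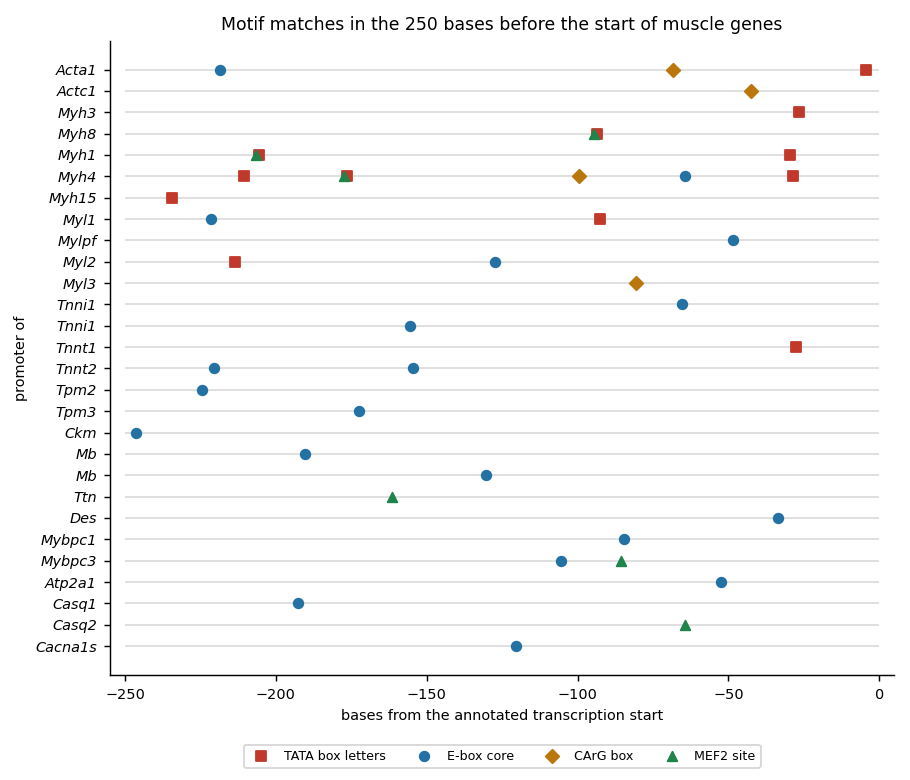
Place of motif matches, in bases before the annotated transcription start, in the promoters of the list that hold at least 1; markers give the kind of match. The Myh4 line carries 6 matches although that gene was at 0.15 and 0.26 TPM, and Acta1, the most abundant gene, carries 3.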

How the data were processed

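Total RNA was sequenced from 2 libraries of 1 group, made from 10.0 ng of RNA each, per the labels. The members and lists were chosen with earlier results of these data known. Build mm10 and GENCODE M4 are named in the text deposited with the tables. Aligner, quantifier, version and use of strand: each was not given in the sources used here. Per the file headers, the authors estimated expected counts for each gene and transcript, without scaling to depth. TPM values are the authors' length-normalised levels, deposited beside FPKM values, which served as an alternative. The authors also deposited each transcript's percent of the TPM of its gene. TPM totals include the spike-ins, which took 7.22% and 11.7% of TPM.

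Names, positions, exons and coding ranges came from GENCODE M21, and 42462 of 43346 Ensembl genes (98.0%) had a symbol. Promoters are RefSeq entries of GRCm38.p6. Depth was 30919488 and 37738872 expected counts. Ratios of CPM used expected counts rounded to whole numbers over all counts of a library, spike-ins included, with exact 95% binomial intervals. Log ratios were taken of TPM + 1 on the log2 scale, where changes of low genes come out too small, at a mean of 5 TPM or more. Coding sequences were compared with BLAST 2.17.0. Scripts ran in Python 3.11.15 with scipy 1.17.1, and were tested on simulated data. edgeR 4.0.16 and DESeq2 1.42.0 gave scaling factors alone.

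The naming rule gave every member its TPM in both libraries. Counts, intervals or transcripts were added for myosin heavy chains, actins, troponins, tropomyosins and calcium genes. It named the 5 highest and 3 lowest of the wider list, and the highest, the lowest and those listed at 0 of the heart and smooth muscle markers. A gene that the rule names is not reported here. Other genes were named after their values were seen. The alternatives tried were units, thresholds, pseudocounts, filters, scalings and each replicate left out, and the length of the longest transcript was added after the data were seen. No p-value was computed across genes or samples.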

Additional observations from a re-analysis of the deposited data

How the results depend on the processing

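The limits are those of 2 libraries: no test between them was possible, and single-library values define every range. With 2 libraries, leaving one out moves a mean by less than its SD by construction, so it shows nothing about stability. The embryonic and perinatal heavy chain share ran from 89.5% to 91.8%, and the fast troponin I share from 32.95% to 43.14%.

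Leaving out replicates aside, 37 alternatives were tried for the group results. Of these, 29 stayed within the spread of the value (for a share or percent the SD of the libraries, for the median ratio the SD over the genes), or within 1.5 times for a count, and 8 did not. Some of the 29 could hardly move by construction. FPKM is proportional to TPM within a library, so the family shares by FPKM were fixed. The median ratio with TMM or DESeq2 scaling was centred again on its own median, which cancels nearly all of the factor. These alternatives show nothing about stability. With expected counts and no division by length, the fast share of troponin I was 28.4%, below the 38.0% of TPM. The leading transcript took 38.3% of counts in Tnnt1, 36.1% in Tnnt3, 44.5% in Tpm1, 68.5% in Tpm2 and 99.98% in Tpm4. With ratios centred on the median gene, and with TMM-scaled CPM, 1 gene, Ckm, was 2-fold or more apart, where the main rule gave 0. The median centred ratio stayed positive, from 0.20 with no filter on low values to 0.45 with a pseudocount of 0.1. Over the longest transcript the mean level was 20.0 TPM for Ttn, 26.6 TPM for Neb, 129.8 TPM for Atp2a1 and 3.90 TPM for Cacna1s. Depth limits Myh4, Myh13, Myh15, Tnni3, Mybpc2 and Mybpc3, which rest on 3 to 62 counts a library. No paired analysis was possible because the series has 1 group.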
